A study of Saccharomyces cerevisiae with 15 samples.

Results

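The transcripts described here are those of 8 genes that govern the oxidative and heat stress responses of Saccharomyces cerevisiae, *YAP1*, *YBP1*, *CAD1*, *CIN5*, *SKN7*, *MSN2*, *MSN4* and *HSF1*. They were taken by name, through the systematic gene name printed beside each array probe, and all 8 were found among the 6224 genes measured. The rule that picks them uses names and no measured value, although the set was proposed with earlier results of these data known. Of these genes, 7 encode DNA-binding proteins and *YBP1* encodes a protein that binds Yap1 and helps it to become oxidised.

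Yap1 is a basic leucine zipper (bZIP) protein that is retained in the nucleus once peroxide has oxidised it, and there it turns on thioredoxin, glutathione and peroxiredoxin genes, many of them together with Skn7. Msn2 and Msn4 are paralogous zinc finger proteins that protein kinase A keeps in the cytoplasm and that activate general stress genes when it is low, while Hsf1 is the essential heat shock factor, held back by Hsp70 and released by misfolded protein. Cad1 (Yap2) and Cin5 (Yap4) are further members of the Yap family. These factors are known to be controlled largely as proteins, by oxidation, phosphorylation, localisation and chaperone binding, none of which an array of RNA levels records.

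RNA came from the wine yeast strain QA23, which all 5 conditions share, grown in rich glucose medium to exponential phase. Control cells received no melatonin and no peroxide, Mel cells were grown with 5 μM melatonin, H cells were exposed to 2 mM H2O2 for 1 h, MelH cells had 5 μM melatonin before and 25MelH cells 25 μM melatonin before the same exposure. There was no condition with 25 μM melatonin and no H2O2. Each condition was measured on 3 arrays, 15 in all, which the study describes as biological replicates. A level below is the log2 of an array's background-subtracted signal minus the 75th percentile of that array, so it is a place within the array and can be compared between conditions for a gene but not between genes. Levels are those of the whole culture, in which fewer cells holding a transcript and less of it per cell cannot be told apart.

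Across genes, replicate arrays gave r of 0.992 to 0.997 with each other. The share of genes well above background ran from 86.3% to 95.3% by array. The 75th percentile signal was 4186 to 5922 on the 6 arrays without H2O2 and 2274 to 3552 on the 9 with it. The arrays sat on 2 slides that both held every condition, 1 or 2 arrays of each. Values within a slide given below thus rest on 1 array of at least 1 condition, assumed to vary like the others. The exception is 25MelH vs. MelH within slide 1, with 2 arrays of each. A call missed within a slide is no sign of a smaller change. In the deposited matrix of normalised values, 9 of 15 columns held the scanner values of a sample other than the one they were named for, so that columns named Mel held MelH, columns named H held Mel and columns named MelH held H. The scanner tables under their own labels are used here. Mel replicate 3 was the highest of the 3 Mel arrays for 7 of the 8 factors, and Mel replicate 2 the lowest for 6 of them.

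All 8 factors were well above background on all 15 arrays, with 0 saturated spots and 0 spots left out among 120 values. Each was read by 1 probe printed in 2 spots, which differed by a median of 0.074 on the log2 scale and by at most 0.71, for *MSN4* on Control replicate 1. The plot of levels by condition shows each array.

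**Figure D1:**
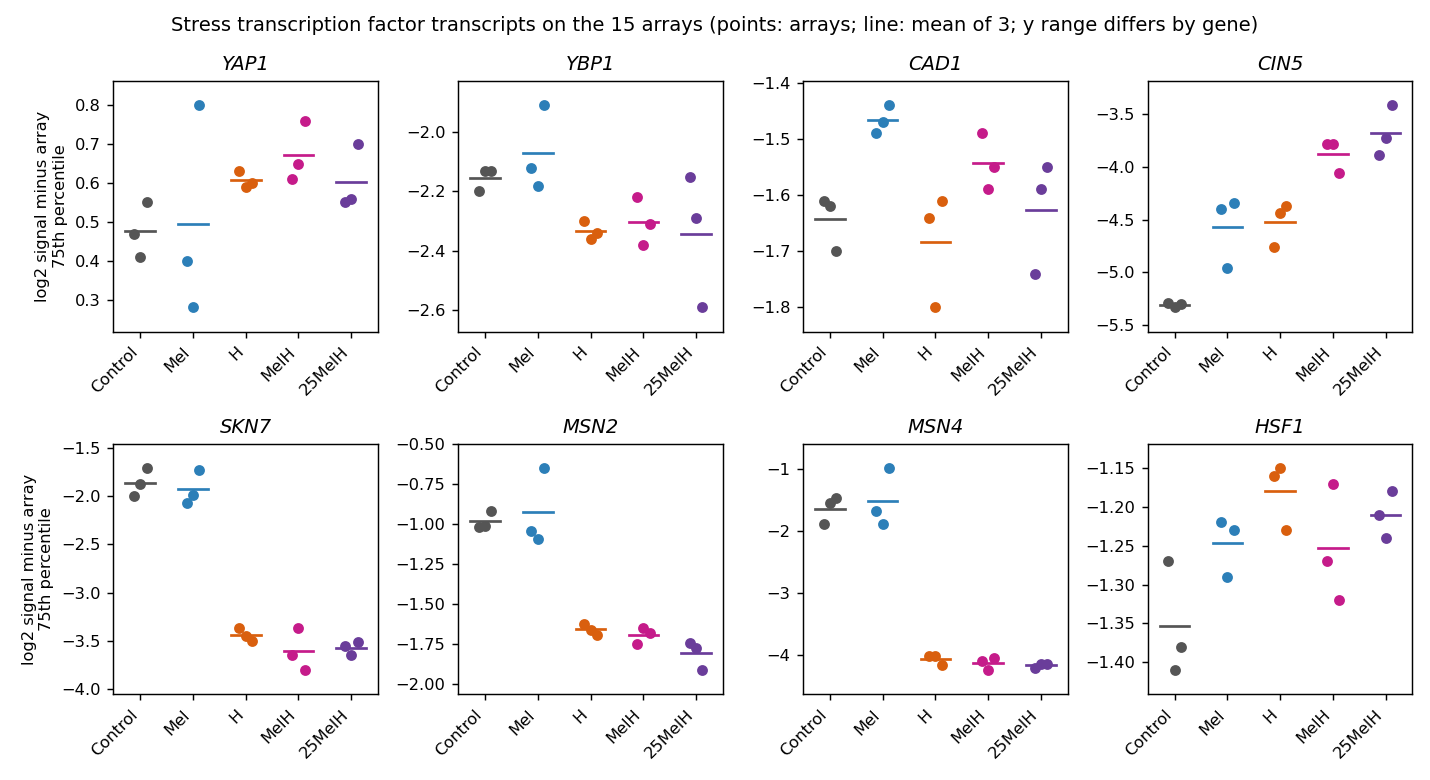
Level of each factor's transcript (log2 signal minus the array's 75th percentile, y axis with its own range per gene) on the 3 arrays of each of 5 conditions. Points are arrays and lines are means of 3. *SKN7*, *MSN2* and *MSN4* are lower on every array with H2O2 than on every array without it, and *CIN5* is lowest on the Control arrays.

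With H2O2, the transcripts of *MSN4*, *SKN7* and *MSN2* were lower and that of *CIN5* was higher relative to the array's 75th percentile, both in cells without melatonin and in cells with 5 μM melatonin. Every rise with H2O2 given below holds on that scaling, and scaling on spike-in probes, under which the median of all genes was −1.47 in H vs. Control (and −1.04 for MelH vs. Mel), put *CIN5*, *HSF1* and *YAP1* and the median of each of the 3 target lists below 0. The changes of *YBP1* and *HSF1*, at −0.18 and 0.17, passed the test without melatonin and not with it, and those of *YAP1* and *CAD1* did not pass it in either comparison. In H vs. Control 6 of the 8 factors were called, 2 higher and 4 lower, at an adjusted p under 0.05 in limma, where 68.4% of all genes were called, 27.2% higher and 41.2% lower. In cells with melatonin (MelH vs. Mel) 4 factors were called, 1 higher and 3 lower, against 52.9% of all genes, 21.9% higher and 31.0% lower. The counts are near these background shares, and the 2 comparisons have no array in common. The test of the difference between them, which is also that between the melatonin effects, was passed by 0 of 8 factors, with *HSF1* at −0.18 (adjusted p = 0.527). The 3 arrays of H and of Control did not overlap for 7 factors (73.9% of all genes), and those of MelH and Mel did not overlap for 5 (63.4% of all genes).

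**Figure D2:**
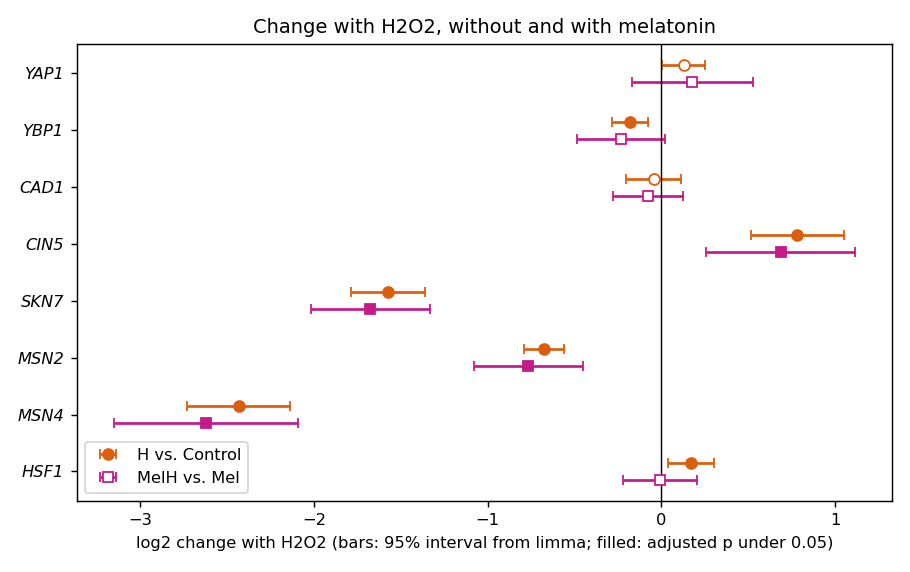
Log2 change of each factor's transcript with H2O2, in cells without melatonin (H vs. Control, circles) and in cells with 5 μM melatonin (MelH vs. Mel, squares). Bars are 95% intervals from limma on 3 arrays against 3, and filled symbols have an adjusted p under 0.05. *MSN4* lies furthest from 0 at −2.43 and −2.62, and *CIN5*, at 0.78 and 0.69 with this scaling on the 75th percentile, was below 0 under spike-in scaling.

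*MSN4*, the stress-inducible paralogue of the zinc finger pair, had the largest change of the 8. Its level was −1.89, −1.55 and −1.47 on the Control arrays and −4.02, −4.02 and −4.16 on the H arrays. It was −1.67, −1.89 and −0.98 on the Mel arrays, −4.10, −4.24 and −4.05 on the MelH arrays and −4.21, −4.14 and −4.14 on the 25MelH arrays. The 9 arrays with H2O2 thus lay within a narrow band, far below the 6 without it, of which Mel replicate 3 was the highest. In H vs. Control *MSN4* fell by 2.43 on the log2 scale (SE 0.12, 5.40-fold lower, n = 3 and 3, adjusted p = 3.02e-05 in limma), a larger change than 98.7% of genes. Between MelH and Mel it fell by 2.62 (SE 0.225, 6.15-fold lower, adjusted p = 0.000128). Within the slides its change was −2.30 and −2.62 for H vs. Control and −2.50 and −2.62 for MelH vs. Mel.

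*MSN2*, which is usually described as the constitutively expressed one of the pair, moved in the same direction by less. Its level was −1.02, −1.01 and −0.92 on the Control arrays and −1.62, −1.66 and −1.69 on the H arrays. On the Mel arrays it was −1.04, −1.09 and −0.65, on the MelH arrays −1.75, −1.65 and −1.68 and on the 25MelH arrays −1.74, −1.77 and −1.91. Again every array with H2O2 was below every array without it. The fall was 1.60-fold in H vs. Control (log2 change −0.67, SE 0.0463, adjusted p = 8.41e-05 in limma) and 1.70-fold in MelH vs. Mel (−0.76, SE 0.134, adjusted p = 0.0031). Within slide 2 alone the latter was −0.81 with an adjusted p of 0.0589.

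Of the 7 zinc finger factors in the list of those related to Msn2, which holds *MSN2* and *MSN4* themselves, 5 were called lower in H vs. Control and 0 higher, with a median of −0.70 against −0.09 for all genes. *USV1* fell by 1.64 on the log2 scale (adjusted p = 0.000164) but was well above background on 9 of the 15 arrays. *COM2* fell by 0.80 (adjusted p = 0.000309) and *GIS1*, which acts under nutrient limitation, by 0.70 (adjusted p = 0.000262). In MelH vs. Mel 6 of the 7 were called lower, *MSN2* and *MSN4* among them, with a median of −0.72. For this list and those below, the shares of all genes called higher and lower were 27.2% and 41.2% in H vs. Control. In MelH vs. Mel they were 21.9% and 31.0%.

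Of 25 genes whose products carry signals to Msn2 and Msn4, 15 were called lower and 5 higher in H vs. Control, with a median of −0.36. *PDE2*, the high-affinity cAMP phosphodiesterase, fell by 2.75 on the log2 scale (SE 0.0974, adjusted p = 1.34e-05 in limma). *PSR2* and *WHI2*, a phosphatase and its partner needed for full activation of the general stress response, fell by 2.05 and 1.17 (adjusted p = 8.2e-06 and 1.43e-05). The 5 higher ones were *MSN5*, the exportin of Msn2, with *SRV2*, *BMH1*, *GLC7* and *REG1*, at changes of 0.13 to 0.47. In cells with melatonin (MelH vs. Mel) 11 of the 25 were called lower and 1 higher, with a median of −0.26.

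Of 21 genes known as Msn2 and Msn4 targets, 15 were called lower in H vs. Control and 3 higher, with a median of −0.45. The largest fall among them was that of *HXK1*, a hexokinase, which fell by 2.49 on the log2 scale (SE 0.138, adjusted p = 4.23e-05). *TSL1*, a subunit of trehalose synthase, fell by 2.41 (adjusted p = 4.6e-05) and *GPH1*, glycogen phosphorylase, fell by 1.78 (adjusted p = 1.62e-05). The 3 higher ones were *HSP26*, a small heat shock protein that is an Hsf1 target too, at 1.75 (adjusted p = 5.48e-05), *HSP12* at 1.42 and *DDR2* at 1.05. *HSP12* was well above background on 14 of the 15 arrays. Between MelH and Mel 14 were called lower and 3 higher, with a median of −1, *HXK1* at −2.97, *TSL1* at −2.78, *GPH1* at −2.36 and *HSP26* at 2.21.

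*SKN7* encodes a response regulator with a DNA-binding domain of the heat shock factor fold, which works with Yap1 on peroxide genes and receives phosphate through the Sln1 relay. Its level was −2, −1.88 and −1.71 on the Control arrays and −3.36, −3.45 and −3.50 on the H arrays. It was −2.07, −1.99 and −1.73 on the Mel arrays, −3.64, −3.37 and −3.80 on the MelH arrays and −3.55, −3.64 and −3.51 on the 25MelH arrays. The arrays with and without H2O2 did not overlap, and the MelH arrays overlapped with both H and 25MelH, while the 25MelH arrays lay just below the H arrays. The 25MelH and H arrays did not overlap for 24.6% of all genes. *SKN7* was 2.97-fold lower in H vs. Control (log2 change −1.57, SE 0.0863, adjusted p = 4.09e-05 in limma) and 3.20-fold lower in MelH vs. Mel (−1.68, SE 0.145, adjusted p = 0.000136). These changes were larger than those of 95.8% and 95.6% of genes. Within the slides they were −1.42 and −1.77 for H vs. Control and −1.44 and −1.94 for MelH vs. Mel.

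In the relay from the Sln1 sensor, *SKN7* included, 5 of 8 genes were called lower and 2 higher in H vs. Control, with a median of −0.57. *SSK1*, the other response regulator of the relay, fell by 1.53 on the log2 scale (SE 0.0714, adjusted p = 2.59e-05). *SSK22* and *SSK2*, the kinases it activates, fell by 1.16 and 0.70 (adjusted p = 1.04e-05 and 0.000283). The 2 higher ones were *HOG1*, the kinase at the end of the pathway, at 0.28 and *PBS2*, its activator, at 0.12. In MelH vs. Mel 4 genes of the relay were called lower and 0 higher, *SSK1* at −1.86, *SSK22* at −1.27 and *SSK2* at −0.76.

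Among the 5 genes with the heat shock factor fold, 4 were called lower in H vs. Control and *HSF1* was the 1 called higher. *SFL1*, a repressor of flocculation genes, fell by 1.36 on the log2 scale (adjusted p = 0.00121), *MGA1* by 1.05 (adjusted p = 0.0181) and *HMS2* by 0.34 (adjusted p = 0.00279). Both *SKN7* and these 3 were also called lower in MelH vs. Mel, with *SFL1* at −1.41, *MGA1* at −1.75 and *HMS2* at −0.69. *SFL1* was well above background on 12 and *MGA1* on 14 of the 15 arrays.

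*HSF1* itself varied little. Its level was −1.27, −1.41 and −1.38 on the Control arrays and −1.16, −1.15 and −1.23 on the H arrays, which lay just above them. On the Mel arrays it was between −1.29 and −1.22, on the MelH arrays between −1.32 and −1.17 and on the 25MelH arrays between −1.24 and −1.18. The change in H vs. Control was 0.17 (SE 0.0529, adjusted p = 0.0294 in limma). With normexp background correction it was 0.17 and did not pass the test (adjusted p = 0.0709). The call was lost with any 1 of Control replicates 2 and 3 and H replicates 1 and 2 left out, with adjusted p of up to 0.0909, within either slide and with the replicate block. In cells with melatonin (MelH vs. Mel) the change was −0.005 (95% interval −0.22 to 0.21, adjusted p = 0.964).

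The genes known as Hsf1 targets were higher with H2O2 relative to the 75th percentile, while spike-in scaling called 1 higher and 12 lower in H vs. Control. On the former, all 22 in the list were called higher in H vs. Control, with a median of 0.81, and 16 of 22 in MelH vs. Mel, with 0 lower and a median of 0.82. *BTN2*, which helps to gather misfolded proteins, rose by 2.26 on the log2 scale (SE 0.0619, adjusted p = 8.2e-06), and the small heat shock protein *HSP26* has been given above. *STI1*, a cochaperone of Hsp90, rose by 1.55 (adjusted p = 2.25e-05), and *HSP82*, the inducible Hsp90, by 1.53 (adjusted p = 0.000179). Between MelH and Mel *BTN2* was at 2.43, *STI1* at 1.43 and *HSP82* at 1.35.

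Of 11 genes that regulate Hsf1, most of them chaperones that are its targets as well, 9 were called higher and 2 lower in H vs. Control, with a median of 0.75. Beside *HSP82*, these were led by *HSC82*, the constitutive Hsp90, at 1.06 (adjusted p = 0.000354), *SSA1*, an Hsp70, at 1.06 (adjusted p = 0.000821), and its cochaperone *YDJ1* at 0.90 (adjusted p = 3.26e-05). The 2 lower ones, *YAK1* and *SNF1*, are protein kinases that phosphorylate Hsf1 and fell by 0.78 and 0.34. In MelH vs. Mel 8 were called higher and 1 lower, with a median of 0.80.

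*YAP1*, the main peroxide-responsive factor of the set, had a level of 0.41 to 0.55 in Control and of 0.59 to 0.63 in H. The Mel arrays spanned both, at 0.40, 0.28 and 0.80, and the MelH and 25MelH arrays lay between 0.55 and 0.76. The change in H vs. Control was 0.13 (SE 0.05, 95% interval 0.004 to 0.25), with an adjusted p of 0.0649 in limma, although the H arrays were all above the Control arrays. Without Control replicate 3 it was 0.17 and passed the test (adjusted p = 0.025). In cells with melatonin (MelH vs. Mel) the change was 0.18 (SE 0.148, adjusted p = 0.341), and without Mel replicate 3 it was 0.33 and passed the test (adjusted p = 0.0293). The H vs. Control change passed it as well with median centring (0.38, adjusted p = 0.00064) and with normexp background correction (0.14, adjusted p = 0.0384). It did not pass with quantile normalization (0.08, adjusted p = 0.198), and spike-in scaling called *YAP1* lower (−1.25, adjusted p = 8.66e-07). With 1 array left out at a time its adjusted p in H vs. Control reached 0.177. In MelH vs. Mel it reached 0.711, at changes of 0.07 to 0.33, and 5 of 6 such fits did not pass.

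*YBP1* was between −2.20 and −2.13 on the Control arrays and between −2.36 and −2.30 on the H arrays. The Mel arrays read −2.12, −2.18 and −1.91, the MelH arrays −2.38 to −2.22 and the 25MelH arrays −2.59 to −2.15. In H vs. Control it fell by 0.18 on the log2 scale (SE 0.0413, adjusted p = 0.00965 in limma), within the slides by 0.14 and 0.22 with adjusted p of 0.339 and 0.0726. This call did not hold across scalings, since quantile normalization called *YBP1* higher (0.19, adjusted p = 0.0106), and median centring (0.08) and normexp (−0.08) lost the call, with adjusted p of 0.162 and 0.269. Between MelH and Mel the change was −0.23 (95% interval −0.49 to 0.02, adjusted p = 0.11).

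The other genes that sense peroxide for Yap1 or carry it through the nuclear pore were mostly higher, though all 8 were called lower under spike-in scaling in H vs. Control. Of the 8 in that list, 6 were called higher and 1, *YBP1*, lower in H vs. Control, with a median of 0.40, and 6 higher and 0 lower in MelH vs. Mel, with a median of 0.54. *TSA1*, the major cytosolic peroxiredoxin, rose by 0.85 on the log2 scale (SE 0.0636, adjusted p = 0.000115) and by 1.15 in MelH vs. Mel. *YRB1* and *GSP1*, of the Ran cycle that drives nuclear transport, rose by 0.68 and 0.53 (adjusted p = 9.89e-05 and 0.00852). *YBP2*, a homologue of *YBP1*, rose by 0.43 (adjusted p = 0.00089). The peroxidase gene *HYR1*, also in the list, was not called in H vs. Control (0.11, adjusted p = 0.139) or in MelH vs. Mel (0.19, adjusted p = 0.163).

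Of 19 genes known as targets of Yap1 and Skn7, 18 had a probe matched by name, and 14 of these were called higher and 4 lower in H vs. Control, with a median of 0.70. *SRX1*, sulfiredoxin, which repairs oxidised peroxiredoxins, rose by 2.81 on the log2 scale (SE 0.175, adjusted p = 5.96e-05). *GPX2*, a glutathione peroxidase, rose by 1.69 (adjusted p = 6.71e-05) and *OYE3*, an NADPH oxidoreductase, by 1.63 (adjusted p = 1.32e-05). The lower ones were led by *ATR1*, a drug efflux pump, which fell by 2.89 (SE 0.12, adjusted p = 1.86e-05), followed by *GTT2*, *FLR1* and *CTT1* at −0.67, −0.50 and −0.28. In MelH vs. Mel 13 were called higher and 3 lower, with a median of 0.75, *SRX1* at 3.73, *GPX2* at 2.91, *OYE3* at 1.88 and *ATR1* at −2.85. The plot of target genes places these beside those of Msn2 and Msn4 and of Hsf1. *HSP26* and *CTT1* each stand in 2 of the target lists.

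**Figure D3:**
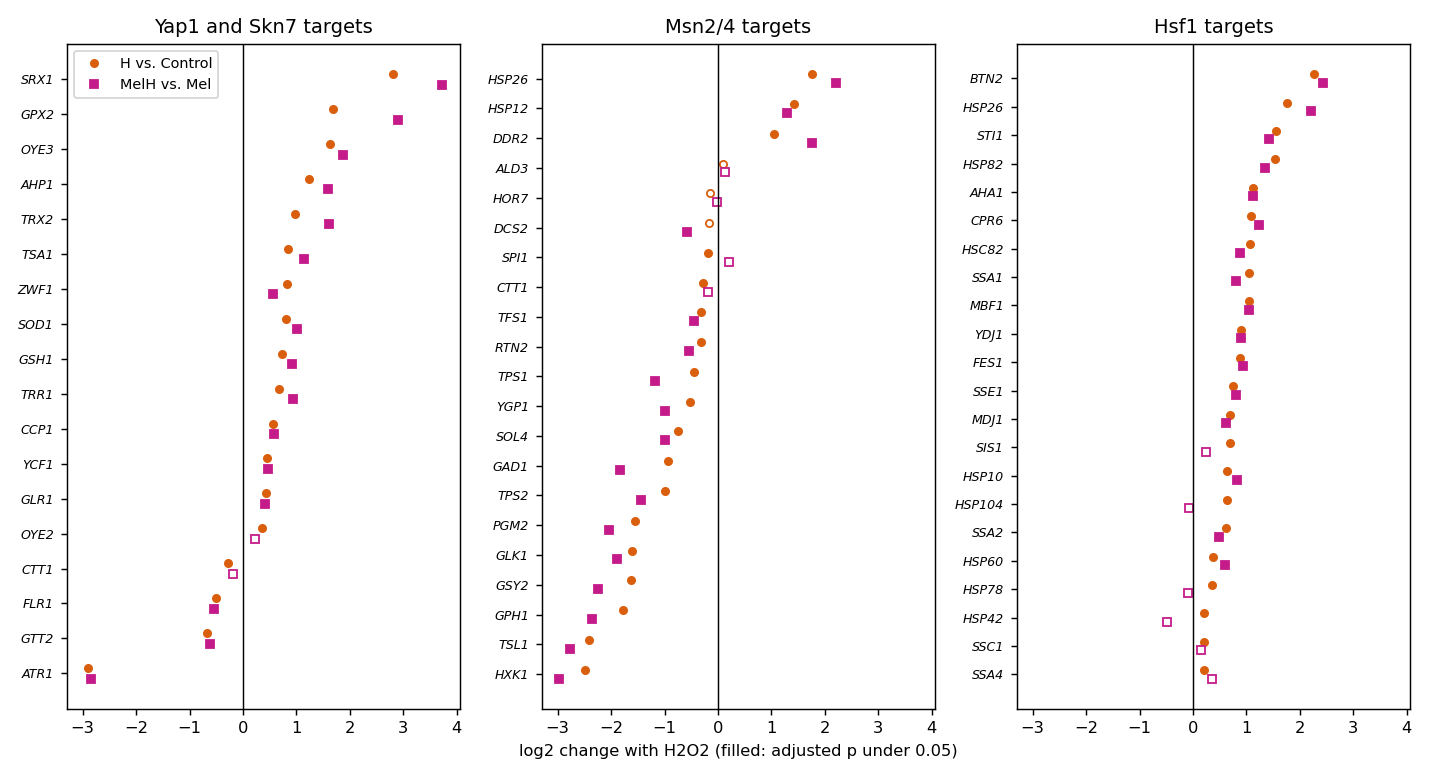
Log2 change with H2O2 of the measured genes known as targets of Yap1 and Skn7 (18 genes), Msn2 and Msn4 (21) and Hsf1 (22), without melatonin (circles) and with it (squares). Filled symbols have an adjusted p under 0.05 in limma. In H vs. Control 14 of 18, 3 of 21 and 22 of 22 were called higher on the 75th percentile scaling (27.2% of all genes). Under spike-in scaling these counts were 1, 0 and 1.

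*CAD1*, the closest relative of *YAP1*, lay in a narrow range on all arrays. Its level was between −1.70 and −1.61 on the Control arrays and between −1.80 and −1.61 on the H arrays, and between −1.49 and −1.44 on the Mel arrays, −1.59 and −1.49 on the MelH arrays and −1.74 and −1.55 on the 25MelH arrays. The 3 Mel arrays were all above the 3 Control arrays, and the 3 MelH arrays all above the 3 H arrays. Arrays did not overlap for 2 of 8 factors in each of these comparisons, and for 18.5% and 21.7% of all genes. The change of *CAD1* with H2O2 was −0.04 (95% interval −0.20 to 0.11, adjusted p = 0.571 in limma) without melatonin and −0.08 (SE 0.0863, adjusted p = 0.486) with it. Without melatonin *CAD1* was called higher with median centring (0.21, adjusted p = 0.0273) and quantile normalization (0.23, adjusted p = 0.0202). The change with melatonin was 0.17 (SE 0.0794, adjusted p = 0.503) without stress and 0.14 (SE 0.0643, adjusted p = 0.43) with it, so neither passed the test.

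Of the 8 bZIP genes of the Yap family, 3 were called higher and 2 lower in H vs. Control, with a median of 0.08, and 3 higher and 1 lower in MelH vs. Mel. Of all genes, 27.2% were called higher and 41.2% lower in the former and 21.9% and 31.0% in the latter. *CIN5* had the largest change of the 8 Yap family genes. *YAP5*, an iron-responsive member, rose by 0.54 on the log2 scale (adjusted p = 0.0046), and *ARR1*, which controls arsenic resistance, fell by 0.55 (adjusted p = 0.000696). *YAP3* fell by 0.40 (adjusted p = 0.00192), and *YAP6*, the paralogue of *CIN5*, rose by 0.16 (adjusted p = 0.0399).

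*CIN5*, which acts in salt and oxidative stress, rose with H2O2 relative to the 75th percentile, and had higher means with melatonin that did not pass the test over all genes. Its level was −5.29, −5.33 and −5.30 on the Control arrays. It was −4.40, −4.96 and −4.34 on the Mel arrays and −4.76, −4.44 and −4.37 on the H arrays, which overlapped with each other and lay wholly above Control. It was −3.79, −3.79 and −4.06 on the MelH arrays and −3.89, −3.73 and −3.42 on the 25MelH arrays, which overlapped with each other and lay wholly above both Mel and H. The order of the means was Control at −5.30, Mel at −4.57, H at −4.52, MelH at −3.88 and 25MelH at −3.68, with neither Mel and H nor MelH and 25MelH separated. Of all genes, 73.9% did not overlap between H and Control and 63.4% between MelH and Mel. Between Mel and Control the share was 18.5% and between MelH and H 21.7%.

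With H2O2, *CIN5* rose 1.72-fold in cells without melatonin (log2 change 0.78, SE 0.108, adjusted p = 0.00124 in limma, but −0.60 under spike-in scaling) and 1.61-fold in cells with 5 μM melatonin (0.69, SE 0.183, adjusted p = 0.0177). Within the slides the changes were 0.55 and 0.89 in the former and 0.61 and 0.59 in the latter, where slide 2 alone gave an adjusted p of 0.207. Without MelH replicate 1 the latter was 0.64 with an adjusted p of 0.0604. The rise is relative to the array, since the signals themselves overlapped, with 104.2 to 151.3 in Control and 102.2 to 139.8 in H. In Mel the signal was 166.3 to 275.9 and in MelH 179.8 to 232.1.

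With melatonin, *CIN5* was 1.67-fold higher in Mel than in Control (log2 change 0.74, SE 0.17, 95% interval 0.34 to 1.14), higher on 3 of 3 arrays, with an unadjusted p of 0.00354 and an adjusted p of 0.201 over all genes in limma. It was 1.56-fold higher in MelH than in H (0.64, SE 0.132, 95% interval 0.32 to 0.97), again on 3 of 3 arrays, with an unadjusted p of 0.00329 and an adjusted p of 0.321. At 25 μM it was 1.79-fold higher in 25MelH than in H (0.84, SE 0.158, 95% interval 0.45 to 1.24, adjusted p = 0.187). None of these passed the test over all genes, but the changes were larger than those of 97.9%, 98.4% and 99.3% of genes. The last 2 comparisons share the H arrays. The arrays did not overlap for 18.5% of all genes in Mel vs. Control and for 21.7% in MelH vs. H.

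Mel vs. Control and MelH vs. H have no array in common, and their mean was fitted over the 12 arrays, a contrast added after both had been seen. In it *CIN5* was 1.61-fold higher (log2 change 0.69, SE 0.115, 95% interval 0.44 to 0.95, adjusted p = 0.025 in limma), and it was the 1 factor of 8 called, where 0.835% of all genes were. The call is near the threshold. With 1 of the 12 arrays left out at a time the change stayed between 0.63 and 0.79 and 8 of 12 fits lost the call, with adjusted p of up to 0.0831, and within the slides it was 0.94 and 0.49 with adjusted p of 0.158 and 0.924. The 77 negative control spots of an array had an SD of 26.1 to 63.6 in Mel, against 5.57 to 6.17 in Control, and the *CIN5* signal was 6.93 to 35 times their 95th percentile in Mel and 12.3 to 44.6 times in Control. The part of these spots in the *CIN5* values was not tested.

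The melatonin effect on *CIN5* under stress minus that without stress was −0.10 (SE 0.23, 95% interval −0.61 to 0.41, adjusted p = 0.914 in limma). MelH cells were 1.43 above Control on the log2 scale (2.69-fold), where the separate changes with melatonin and with H2O2 sum to 1.52. Raising melatonin from 5 to 25 μM before stress changed *CIN5* by 0.20 (SE 0.142, 95% interval −0.15 to 0.55, adjusted p = 1).

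**Figure D4:**
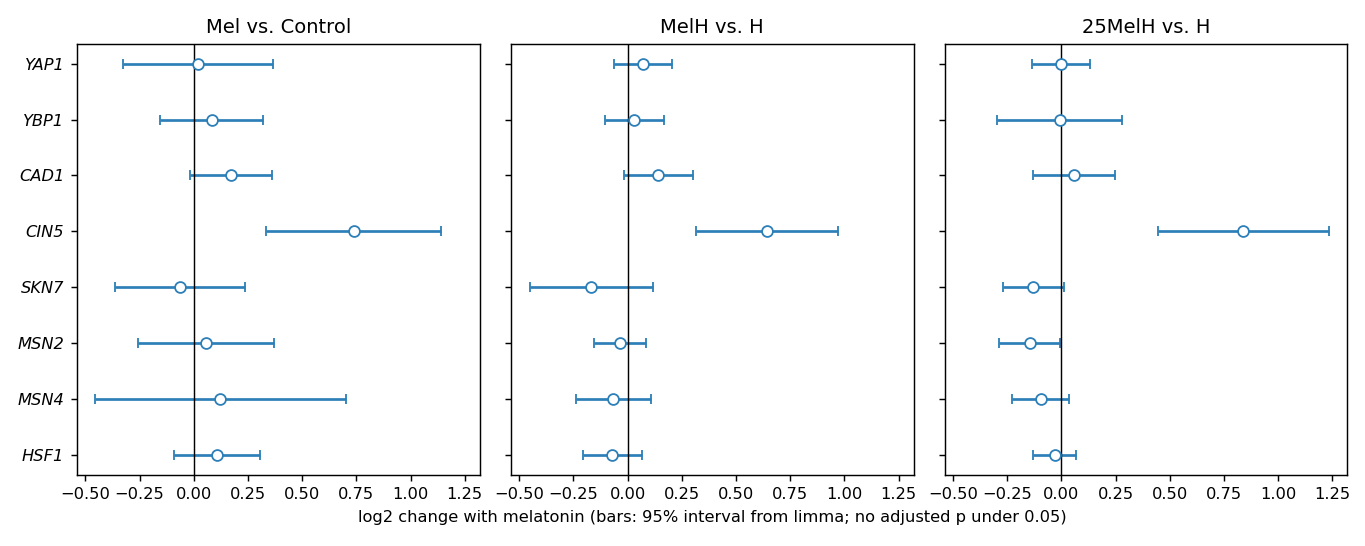
Log2 change of each factor's transcript with melatonin, at 5 μM without stress (Mel vs. Control) and at 5 or 25 μM before stress (MelH vs. H, 25MelH vs. H, which share the H arrays). Points are differences of means of 3 arrays, bars are 95% intervals from limma, and no adjusted p was under 0.05. *CIN5* lies at 0.74, 0.64 and 0.84, and at 0.56, 0.86 and 0.82 under spike-in scaling.

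The other factors moved less with melatonin, and 0 of 8 were called in Mel vs. Control (0.353% of all genes), MelH vs. H (0%), 25MelH vs. H (0%) and 25MelH vs. MelH (0%). At an unadjusted p under 0.05 the counts were 1, 1, 2 and 0 of 8, against 10.4%, 12.5%, 15.9% and 1.38% of all genes. Beside *CIN5*, the 1 factor among these was *MSN2* in 25MelH vs. H, at −0.15 (SE 0.0561, unadjusted p = 0.0437, adjusted p = 0.303). In Mel vs. Control the 6 factors other than *CIN5* and *CAD1* lay between −0.06 and 0.12, and the interval of *MSN4* ran from −0.45 to 0.70. The difference between the melatonin effects with and without stress was called for 0 of 8 factors (0.370% of all genes), and for 0 of 8 at an unadjusted p under 0.05, and lay between −0.19 and 0.05.

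The targets of the factors showed few calls with melatonin. In Mel vs. Control 1 of the 18 Yap1 and Skn7 targets was called, *GPX2*, which fell by 1.05 on the log2 scale (SE 0.129, adjusted p = 0.0356 in limma), and the median of the list was −0.09. The 21 Msn2 and Msn4 targets had a median of 0.39 in Mel vs. Control, 0.16 in MelH vs. H and 0.23 in 25MelH vs. H, with 4, 7 and 12 higher and 0 lower at an unadjusted p under 0.05 and 0 called. The medians over all genes were −0.02, 0.02 and 0.01. At that p in limma, 221, 498 and 555 of all 6224 genes were higher and 428, 280 and 432 lower. The 22 Hsf1 targets had medians of 0.06, 0.08 and 0.09, with 5, 7 and 6 higher and 1, 1 and 1 lower at that p. For the 18 Yap1 and Skn7 targets these counts were 0, 3 and 9 higher and 4, 1 and 1 lower. In the averaged melatonin effect (0.835% of all genes called), *GPX2* was called lower (−0.44, adjusted p = 0.0273 in limma). The Hsf1 targets *BTN2* (0.41, adjusted p = 0.00937) and *SIS1* (0.37, adjusted p = 0.0405) were called higher. The difference between melatonin effects (0.370% of all genes called) was called for *GPX2* alone of these targets (1.22, adjusted p = 0.0153). *GPX2* was at 0.16 in MelH vs. H.

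Among 19 further stress transcription factors, 6 were called higher and 11 lower in H vs. Control (27.2% and 41.2% of all genes), with a median of −0.30. *XBP1*, a stress-induced repressor, fell by 2.82 on the log2 scale (adjusted p = 0.000223) but was well above background on 7 of 15 arrays. *ROX1*, the repressor of hypoxic genes, rose by 2.50 (adjusted p = 3.22e-05). *HAP1*, the heme-responsive activator, fell by 1.55 (adjusted p = 2.18e-05), and *MET4*, the activator of sulfur genes, by 1.23 (adjusted p = 6.64e-05). Of the 3 genes that the study used as qPCR references, *ACT1* was 0.31 and *HEM2* 0.16 higher (adjusted p = 0.00508 and 0.0281) and *TAF10* was at −0.08 (adjusted p = 0.14).

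The direction of small changes with H2O2 depended on how arrays were scaled. Scaled on the spike-in probes, the median of all genes in H vs. Control was −1.47, against −0.09 with the 75th percentile, and all 8 factors were called lower, *CIN5* at −0.60, *HSF1* at −1.21 and *YAP1* at −1.25. The 75th percentile, median centring and spike-in scalings each shift all genes of an array alike. Changes relative to the median gene are therefore the same under these by construction, and only quantile normalization and normexp can differ. Relative to the median gene, *CIN5* was higher by 0.75 to 1.16 under the 5 scalings in H vs. Control and by 0.57 to 1.13 in MelH vs. Mel. In H vs. Control the relative change was −2.34 to −2.06 for *MSN4*, −1.48 to −1.22 for *SKN7* and −0.65 to −0.56 for *MSN2*. Under spike-in scaling in H vs. Control 1 of 18 Yap1 and Skn7 targets was called higher and 13 lower, 0 of 21 Msn2 and Msn4 targets higher and 18 lower and 1 of 22 Hsf1 targets higher and 12 lower. Relative to the median gene, the medians of these lists were 0.79, −0.36 and 0.90 under that scaling, and by construction the same with the 75th percentile. *YBP1*, at −0.15 to 0.12, and *CAD1*, at −0.05 to 0.16, changed sign between scalings, while *YAP1* lay at 0.01 to 0.22 and *HSF1* at 0.10 to 0.30.

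**Figure D5:**
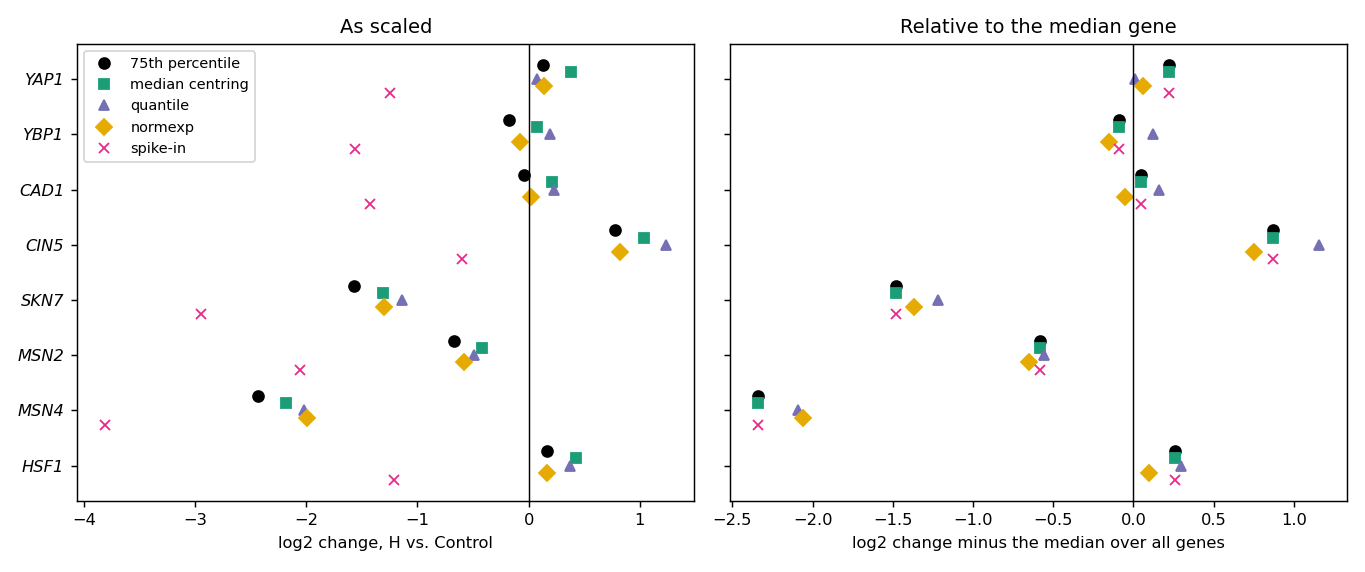
Log2 change of each factor's transcript in H vs. Control under 5 scalings of the arrays, as scaled (left) and minus the median change of all genes under that scaling (right). Each symbol is a difference of means of 3 arrays. Spike-in scaling moves all 8 factors below 0 on the left, and on the right *CIN5* lies at 0.75 to 1.16 and *MSN4* at −2.34 to −2.06.

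Among 5320 genes well above background on all 15 arrays, those whose levels followed each factor most closely were found by Pearson's r, given as a description over arrays that share the 5 conditions. *MSN4* was most like *NRG1*, a repressor of glucose-repressed genes, with r of 0.996, and *ALR2*, a putative magnesium transporter, with 0.995. Over the 9 arrays with H2O2 alone these were 0.677 and −0.234 and over the 6 without it 0.977 and 0.909. *MSN2* was most like *MAC1*, the copper-sensing activator, with r of 0.994, which was 0.917 over the 9 arrays with H2O2 and 0.925 over the 6 without it. *SKN7* was most like *SAL1*, a mitochondrial nucleotide carrier, with 0.995 over all arrays, 0.905 over the stressed ones and 0.625 over the others.

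*CIN5* was most like *GTS1* with r of 0.93, *ROQ1* with 0.923 and *SAR1* with 0.919. *ROQ1*, whose product alters the specificity of the Ubr1 ubiquitin ligase under stress, kept 0.931 over the 9 arrays with H2O2 and 0.98 over the 6 without it. *YAP1* was most like *NTH2*, a trehalase, at 0.904, *YBP1* like *DFR1*, dihydrofolate reductase, at 0.905, *HSF1* like *BPL1*, the biotin ligase, at 0.886 and *CAD1* like *HMRA1*, of the silent mating-type cassette, at 0.91.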

How the data were processed

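RNA of strain QA23 was hybridised with 1 dye (Cy3) to 15 arrays, 3 per condition by the sample labels. The authors deposited scanner tables (Feature Extraction 12.0.1.1) with the processed signal, a linear intensity from which background has been taken off, and a matrix of normalised log2 values whose columns partly belong to other samples and which served as an alternative. Here control spots and 1 to 84 outlier spots per array were left out, both spots of each probe were averaged as log2 signals, and each array's 75th percentile was taken off. The brightest probe of each gene was kept, and 5642 of 6224 genes had a name in the R64 gene table.

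Conditions were compared on their 6 arrays with limma 3.58.1 in R 4.3.3 (lmFit, eBayes, two-sided), by Benjamini-Hochberg adjustment over 6224 genes and a threshold of 0.05. Numbered replicates did not pair, since in 0 of 6 comparisons were all 3 correlations of deviations over 0.1. The normexp alternative (offset 50) used median signals, since the scanner tables hold no column of mean signals. The number of arrays limits the precision, and cross-hybridisation of paralogues was not tested.

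The 8 genes and 12 lists, written from general knowledge, were chosen with earlier results of these data known. Named genes are the 8, up to 4 per list with the largest called change in H vs. Control (1 of which is not reported here), the likest 3 per factor (of which some are named) and the 3 reference genes. *HSP12*, *DDR2*, *GTT2*, *FLR1*, *CTT1*, *MSN5*, *SRV2*, *BMH1*, *GLC7*, *REG1*, *HOG1*, *PBS2*, *YAK1*, *SNF1*, *HYR1*, *YAP6* and *SIS1* were named after their values were seen.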

Additional observations from a re-analysis of the deposited data

How the results depend on the processing

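The calls of *MSN4*, *SKN7* and *MSN2* with H2O2 kept direction and threshold under the other scalings, normexp, slide and replicate blocks and every left-out array, except *MSN2* within slide 2. With the replicate block 5 factors were called for H vs. Control (*HSF1* lost, adjusted p = 0.0625) and 4 in MelH vs. Mel, and it ended the *CIN5* call in the averaged melatonin effect (0 called, adjusted p = 0.0903). Spike-in scaling called 7 in MelH vs. Mel and 0 in the averaged effect, within slide 2 gave 2 and 0, and within slide 1 the latter gave 0. Mel vs. Control had 1 called (*CIN5*, adjusted p = 0.0295) with all 15 arrays in 1 fit and 1 (adjusted p = 0.0485) without Mel replicate 2. At an unadjusted p under 0.05 the counts were 1 in Mel vs. Control, 1 in MelH vs. H, 2 in 25MelH vs. H and 2 in the averaged effect. Leaving out 1 array gave 5 to 6 called for H vs. Control, 3 to 5 for MelH vs. Mel, 0 to 1 in Mel vs. Control and in the averaged effect and 0 to 0 elsewhere.

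Signs of changes with H2O2, of *CIN5* and of changes with an unadjusted p under 0.05 turned as follows on the log2 scale. Of the smaller changes with melatonin, spike-in scaling turned *YAP1*, *YBP1*, *MSN2*, *MSN4*, *HSF1* and *CAD1* below 0 in Mel vs. Control (−0.16 to −0.01) and *SKN7*, *MSN2*, *MSN4* and *HSF1* above 0 in MelH vs. H (0.05 to 0.18). Median centring put *CAD1* at 0.21 in H vs. Control and at 0.15 in MelH vs. Mel, *YBP1* at 0.08 in the former and *HSF1* at 0.22 in the latter. Quantile normalization gave *CAD1* 0.23 and 0.13, *YBP1* 0.19 and 0.09 and, in MelH vs. Mel, *HSF1* 0.15. Normexp gave *CAD1* 0.02 in H vs. Control, and *MSN2* 0.21, *SKN7* 0.84 and *MSN4* 0.92, among others, for 25MelH vs. H. It set the 5th percentile signal of 25MelH replicate 2 at 2296, against 66 to 139 on the other arrays, and without that array, an alternative added after seeing this, *MSN2* was at −0.15 and *CIN5* at 0.69. Spike-in scaling gave *CIN5* −0.60 in H vs. Control, −0.30 for MelH vs. Mel, −0.03 in 25MelH vs. MelH and 0.30 for the difference between melatonin effects, *YAP1* −1.25 and −0.81 and *HSF1* −1.21 in H vs. Control. Within slide 1 *CIN5* was at −0.02 in 25MelH vs. MelH and at 0.06 for the difference. Leaving out 1 array gave *CAD1* −0.08 to 0.01 in H vs. Control, *HSF1* −0.05 to 0.03 in MelH vs. Mel (0.01 without Mel replicate 1, 0 without Mel replicate 3 or MelH replicate 1, 0.03 without MelH replicate 3) and *CIN5* −0.29 to 0.02 for the difference. The cause was not tested. 25MelH vs. MelH within slide 2 could not be fitted.

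With the matrix columns read as named, which pairs other samples, called factors numbered 0 in both H2O2 comparisons, 5 in Mel vs. Control, 4 in MelH vs. H, 4 in 25MelH vs. H, 1 for the difference and 5 in the averaged effect. In H vs. Control *CAD1* was then at 0.17, *MSN2* at 0.06, *MSN4* at 0.12 and *YBP1* at 0.08. In MelH vs. Mel *CIN5* was at −0.64, *HSF1* at 0.07, *MSN2* at 0.03, *MSN4* at 0.06, *SKN7* at 0.17 and *YAP1* at −0.07, and in the averaged effect *CAD1* was at −0.06.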
